A study of Mus musculus with 2 samples.

Results

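Long intergenic noncoding RNAs (lincRNAs) are transcripts of genes that lie between protein-coding genes and are not translated into a known protein. The annotation used for the deposited tables gives 6058 genes at least 1 lincRNA transcript, and 248 of them reached 1 TPM (a level scaled by transcript length and by the library's total) in both adrenal libraries. Meg3, Rian, Mirg, H19 and Kcnq1ot1, noncoding RNAs of imprinted regions, were left out of the set by name. Kcnq1ot1 had no lincRNA transcript, and no other gene was left out for its region. The 248 genes were therefore chosen on their own TPM, and their levels are given as a description with no test. They were 1.75% of the 14168 genes detected by the same limit, which were 25.6% of all 55450 annotated genes. The gene-level class of the annotation was lincRNA for 202 of them, processed transcript for 45 and protein-coding for 1, 2200002J24Rik, and 201 had lincRNA transcripts only. Not all are apart from coding genes, since exons of some overlap a coding gene on the same strand. Examples are Gm17322 with Cyp11a1, at 2869 and 2747 TPM, and Gm38399 with Nav1, at 8.72 and 8.08 TPM. The part of coding-gene reads in such entries was not tested.

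Total RNA came from the adrenal gland of adult male mice from a cross of 5xFAD and CAST, 8 to 10 months old, supplied by The Jackson Laboratory. 5xFAD mice carry human amyloid transgenes driven by the neuronal Thy1 promoter, and CAST mice descend from wild Mus musculus castaneus. Reads of either parental allele were counted on mm10, and alleles were not analysed here. The 2 libraries, biological replicates 1 and 2, form 1 group and were each made with a stranded protocol from 300 ng of RNA after ribosomal RNA was reduced. The labels give both the same donor entry but separate biosamples, so the spread between them may not be that between animals. Values are given for each library in the order replicate 1, replicate 2, and means with the SD over both (n = 2). With 1 group, no comparison between genotypes or treatments could be made.

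Long noncoding RNAs act in many ways. Some build nuclear bodies, some carry microRNAs or small nucleolar RNAs (snoRNAs) in their introns and exons, and some act at their own locus on a neighbouring gene. Small nucleolar RNAs guide chemical modification of ribosomal RNA, and scaRNAs do the same for spliceosomal RNAs in Cajal bodies. MicroRNAs pair with target RNAs through their seed, bases 2 to 8.

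The sequences that several of these genes are known for are shown first. By coordinates, 17 of the 248 genes contained a microRNA hairpin of RefSeq on the same strand, and 3 of them carried mature microRNAs with the let-7 seed: Lncppara, Mir99ahg and 6720427I07Rik. 3110039I08Rik holds the let-7a-2 hairpin as well, for which the table gives the 3′ arm. The mature sequences of the first 3 (RefSeq, GRCm38.p6) are given 5′ to 3′ with the seed in capitals, which shows that they share it while the remaining bases differ.
mmu-let-7a-5p: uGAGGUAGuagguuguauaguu
mmu-let-7b-5p: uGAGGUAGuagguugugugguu
mmu-let-7c-5p: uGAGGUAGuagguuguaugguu
mmu-let-7d-5p: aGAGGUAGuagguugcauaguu
mmu-let-7f-5p: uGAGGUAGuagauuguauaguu
A pair of hosts on different chromosomes shared another seed. 3110039I08Rik, named Mir100hg in RefSeq, lies on chromosome 9 and carries miR-100, and Mir99ahg lies on chromosome 16 and carries miR-99a.
mmu-miR-100-5p: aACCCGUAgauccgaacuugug
mmu-miR-99a-5p: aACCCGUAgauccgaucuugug
A330023F24Rik on chromosome 1 carried both miR-29b and miR-29c, whose seeds were identical. The gene annotation also places microRNA genes in exons of lincRNAs outside the 17 hosts. Examples are Mir29b-1 in Gm27019, Mir24-2 in Gm26532 and Mir1906-2 in Gm27000.
mmu-miR-29b-3p: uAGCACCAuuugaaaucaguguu
mmu-miR-29c-3p: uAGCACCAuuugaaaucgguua

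1700020I14Rik, named Oip5os1 in RefSeq and known as Cyrano, is known for a highly complementary site for miR-7. Its 8300-base transcript held the complement of the miR-7a seed at 2 places. At bases 2935 to 2959 a run of 13 further bases matched the microRNA, and at bases 745 to 769 the longest such run was 3 bases. The microRNA is shown with its seed in capitals and the windows of the transcript with the seed complement in capitals.
mmu-miR-7a-5p: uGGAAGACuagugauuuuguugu
Bases 2935 to 2959: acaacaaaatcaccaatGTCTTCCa
Bases 745 to 769: caggttttttttttaatGTCTTCCa

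Malat1 and the long form of Neat1, Neat1-201, are known to end in a triple helix of U-rich motifs and an A-rich tract instead of a poly(A) tail. The 100 bases that end with the A-rich tract are shown for the longest transcript of each gene. The U-rich motifs (T in this DNA spelling) and the tract are in capitals. The tract occurred once in each transcript, at the very end of Neat1-201 and 292 bases before the annotated end of Malat1-201.
Malat1-201: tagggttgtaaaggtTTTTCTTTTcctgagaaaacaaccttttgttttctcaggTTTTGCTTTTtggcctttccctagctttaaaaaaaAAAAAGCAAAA
Neat1-201: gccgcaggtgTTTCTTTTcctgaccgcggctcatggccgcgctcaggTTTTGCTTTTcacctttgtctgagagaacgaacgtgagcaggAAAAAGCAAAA

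Genes that host snoRNAs often start transcription at a run of pyrimidines, the terminal oligopyrimidine tract known from ribosomal protein genes. RefSeq starts (GRCm38.p6) of 9 hosts were examined, and 5 had a start with at least 5 pyrimidines. Windows of 40 bases are shown for 4 of these, with the run of C and T that begins at the start in capitals.
Gas5, chr1:161035146-161035185, plus strand: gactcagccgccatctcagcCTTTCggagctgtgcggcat
Snhg8, chr3:123508317-123508356, minus strand: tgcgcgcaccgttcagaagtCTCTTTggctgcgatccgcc
Snhg12, chr4:132308658-132308697, plus strand: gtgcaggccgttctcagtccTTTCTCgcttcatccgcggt
Snhg17, chr2:158361490-158361529, minus strand: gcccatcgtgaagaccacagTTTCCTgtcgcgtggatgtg
These starts, like that of Snhg18, carried runs of 5 or 6 pyrimidines. Snhg1 had 3, and Snhg5, Snhg20 and Dancr had 0. RefSeq also lists another start for Gas5 and for Snhg17, and neither of those began with a pyrimidine. Over the leading annotated transcripts, 7 of the 20 snoRNA or scaRNA hosts among the lincRNAs (35.0%) began with at least 5 pyrimidines, beside 6.85% of all 248 genes and 4.25% of all detected genes.

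The libraries held 29193473 and 26311901 counts in annotated genes. Markers of the adrenal cortex (6 of 6) and the medulla (5 of 5) were all detected, while none of 4 kidney, 3 liver and 3 lymphocyte markers reached the limit. The 5 white adipocyte markers were detected too, and their TPM summed to 470.3 in replicate 1 and 273.6 in replicate 2. In bulk tissue, fewer cells of a type and less RNA per cell cannot be told apart.

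A few entries held nearly all of the signal. The sum over the 248 genes was 32173 TPM in replicate 1 and 31553 TPM in replicate 2. The 4 highest genes, Malat1, Gm26917, Gm42418 and Rmrp, made up 93.9% and 94.1% of it, and Malat1 alone 39.6% and 39.8%. Of the 4, RefSeq classes only Malat1 as lncRNA, and Gm26917 had no match there. The median gene stood at 2.73 TPM in each library, against 12.3 and 12.45 TPM for the detected protein-coding genes, and 81 genes had a mean below 2 TPM. Only 33 of the 248 had a mean of at least 10 TPM.

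Malat1, a nuclear RNA of splicing speckles on chromosome 19 (mm10, 5795690 to 5802672), was the highest at 12753 TPM in replicate 1 and 12566 TPM in replicate 2. Its mean was 12659.5 ± 133 TPM (SD, n = 2), and it alone took 4.08% and 3.92% of all annotated-gene counts. Gm26917 was at 11422 and 11464 TPM, and Gm42418 at 3223 and 3015 TPM. These neighbours on chromosome 17 lie 616 bases apart, and RefSeq lists Gm42418 as Rn18s-rs5, a pseudogene related to ribosomal RNA. Gm26917 and Gm42418 were singled out in earlier results on these libraries for reads that resemble ribosomal RNA, and the part that remaining ribosomal RNA has in their values was not tested. Together the 248 genes held 8.07% and 7.82% of annotated-gene counts, and without Malat1, Gm26917 and Gm42418 they held 0.474% and 0.451%.

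The fourth was an entry named Rmrp on chromosome 4 (43492783 to 43493063), at 2816 and 2635 TPM. Rmrp is the RNA of RNase MRP, an enzyme of ribosomal RNA processing. A further Rmrp entry of class ribozyme covers the same stretch on the same strand, at 4376 and 3848 TPM, and the lincRNA entry shared 96.0% of its 31-base words with it. How reads are divided between them is a choice of each quantifier. In the second quantifier the lincRNA entry was at 967 TPM in replicate 1 and 3535 TPM in replicate 2, so the order of the libraries turned. The ribozyme entry was there at 8916 and 4529 TPM. Summed over both entries the order was the same in each table, at 7192 and 6483 TPM in the gene table and 9883 and 8065 TPM in the second quantifier.

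Neat1, the scaffold of paraspeckles, lies 22035 bases from Malat1 and was at 367.7 and 253.4 TPM, a mean of 311 ± 80.8 TPM (SD, n = 2). Gas5, a snoRNA host whose spliced RNA binds the glucocorticoid receptor, was at 127.3 and 145.5 TPM, a mean of 136 ± 12.9 TPM (SD, n = 2). 2900097C17Rik, named Norad in RefSeq, which binds Pumilio proteins, was at 82.7 and 87.0 TPM. Next came Lncpint at 67.4 and 62.1 TPM, a transcript induced by p53. Lower in the list stood 1810026B05Rik, named Chaserr in RefSeq and known to restrain its neighbour Chd2, at 28.0 and 30.0 TPM, and Cyrano (1700020I14Rik) at 24.9 and 25.6 TPM. Neat1 stood lower in replicate 2 and Gas5 higher there, while Norad and Cyrano were nearly level.

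**Figure D1:**
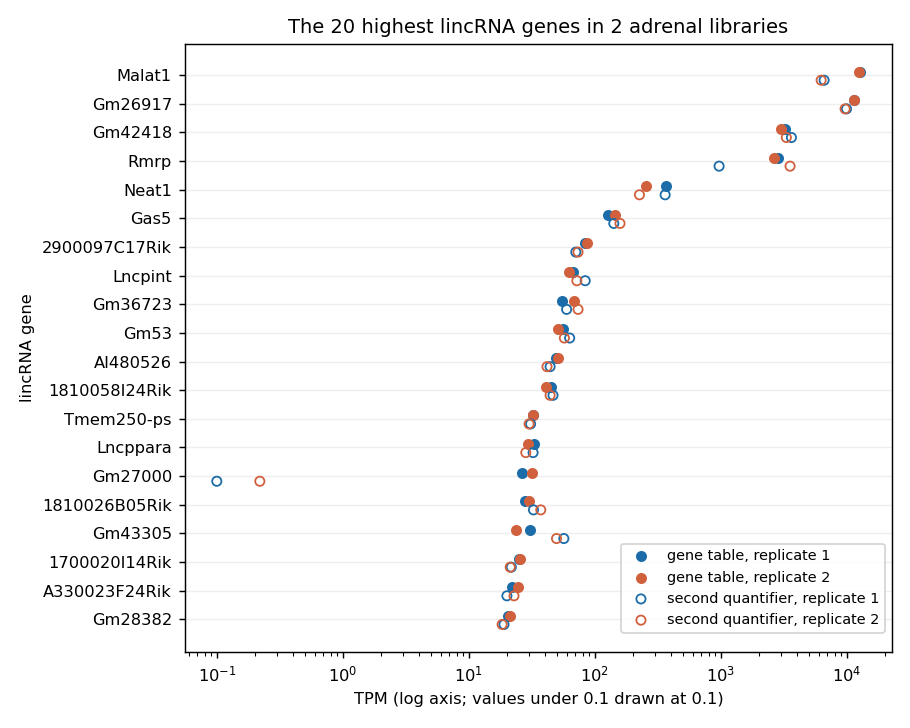
TPM (log axis) of the 20 lincRNA genes with the highest mean, with filled points for the gene table and open points for the second quantifier, blue for replicate 1 and orange for replicate 2. Filled and open points lie close together for most genes, while the open points of Gm27000 lie at 0.22 TPM or below and those of Rmrp lie apart at 967 and 3535 TPM.

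RefSeq matched 158 of the 248 genes and called 141 of them lncRNA. It called 12 protein-coding, 3 pseudogenes, 1 a transcribed pseudogene and 1, Rmrp, an RNase MRP RNA. The set is thus not free of coding genes by that annotation. The highest of the 12 were 1810058I24Rik at 44.9 and 41.2 TPM and Tmem250-ps at 32.2 and 32.3 TPM.

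Members of the lists of known lincRNAs were detected unevenly. All 11 snoRNA hosts of lincRNA type on the list were above the limit, with a median of 13.2 TPM over their means. After Gas5, the highest were Snhg1 at 20.1 and 20.5 TPM, Snhg5 at 18.9 and 20.3 TPM, and Snhg20 at 19.1 and 19.7 TPM. Snhg12 was at 14.7 and 15.5 TPM and Snhg8 at 14.8 and 11.7 TPM. Snhg8 stood lower in replicate 2, with a log2 count ratio of -0.33 and a counting standard error of 0.18. Of 8 listed growth and stress RNAs of lincRNA type 5 were detected, Norad, Lncpint, Pvt1 at 8.89 and 9.46 TPM, Cyrano and Chaserr. Of the nuclear-body RNAs, Miat was at 0.34 and 0.11 TPM and missed the limit.

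Of 10 listed microRNA hosts of lincRNA type 5 were detected, those 5 with a median of 7.29 TPM. Over all hosts found by coordinates, the medians were closer, at 7.125 and 7.74 TPM for the 20 snoRNA or scaRNA hosts and 6.72 and 6.05 TPM for the 17 microRNA hosts. The level of a host does not give the level of its mature microRNA, which was not analysed here. Lncppara, the host of let-7b, was at 32.9 and 29.4 TPM and A330023F24Rik, the host of miR-29b and miR-29c, at 22.1 and 24.7 TPM. 3110039I08Rik, the host of miR-100, was at 10.5 and 11.1 TPM. Mir99ahg was at 7.15 and 7.43 TPM, and 6720427I07Rik, with let-7a, let-7d and let-7f, at 5.11 and 5.93 TPM. Carmn, known from smooth muscle as the host of miR-143 and miR-145, came from the list and is not among the 17 hosts found by coordinates. It was at 5.61 and 5.21 TPM. Mir142hg, which carries the blood-cell microRNA miR-142, was at 1.86 and 1.16 TPM on 9 and 5 counts. Mir17hg, the host of the miR-17 cluster, missed the limit at 0.74 and 0.69 TPM.

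Of the X-inactivation RNAs, Xist, which coats the inactive X chromosome of female cells, was at 0.04 and 0.07 TPM in these males. Its neighbours Ftx, at 7.87 and 6.75 TPM, and Jpx, at 6.62 and 5.56 TPM, were detected. The developmental list was mostly undetected. Of its 9 lincRNAs only Bvht, described in heart development, was detected, at 2.57 and 2.08 TPM, and Hotair, Hottip, Pantr1 and Pantr2 were listed at 0 in both libraries. The highest of the others was Lncenc1, at 0.29 and 0.31 TPM.

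The limit of 1 TPM cut through a dense range of values. Just inside it were A330035P11Rik at 1.00 and 1.03 TPM, Gm20442 at 1.87 and 1.00 TPM, Gm26660 at 1.51 and 1.01 TPM, and 1700026F02Rik at 1.01 and 1.96 TPM. Just outside it were 5033430I15Rik at 0.99 and 1.32 TPM, 6030443J06Rik at 0.99 and 1.03 TPM, Gm15834 at 1.27 and 0.98 TPM, and Gm17354 at 1.22 and 0.98 TPM. Members and non-members at the limit thus had like levels. A further 63 lincRNA genes reached the limit in 1 library only, 43 in replicate 1 and 20 in replicate 2, and 42 of the 248 had an interval of TPM, as the authors deposited it, that began below 1 in at least 1 library. Depth per gene was uneven as well. The median was 109.7 counts in replicate 1 and 95.0 in replicate 2, and 1700026F02Rik passed on 2.67 and 4.62 expected counts over an effective length of 92 bases.

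The 248 genes were compared in structure with the 5806 lincRNA genes that missed the limit in at least 1 library, leaving out the imprinted names. Detected genes lay nearer to protein-coding genes. The median distance between their start and the nearest coding start was 20367 bases, against 72370.5 bases for the others. A divergent start, on the opposite strand and within 1000 bases upstream, was found for 37 of 248 (14.9%) and for 237 of 5806 (4.08%). The nearest coding gene was itself detected for 77.4% and 58.6%. Among the highest of these pairs, AI480526 at 49.1 and 51.1 TPM started 527 bases from Setd1b, a histone methyltransferase gene at 13.01 and 12.4 TPM. Snhg1 started 106 bases from Slc3a2, an amino acid transporter gene at 73.6 and 69.0 TPM, and 5031425E22Rik at 17.4 and 19.2 TPM started 172 bases from Kmt2e, at 37.9 and 38.6 TPM. Single-exon genes made up 18.5% of the detected set and 4.68% of the others, and the median leading transcript was longer, at 1372.5 against 810 bases. Entries whose exons overlap a coding gene were kept in both sets. An example is Gm42743, which started 31 bases from Hist2h2bb on the same strand. The part of coding-gene reads in their detection was not tested. No test was run on these features, and the pairs were named after their values were seen.

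RefSeq promoter windows (250 bases before to 50 after a start) were found for 129 of the 248 genes, 163 windows in all. They were taken by the RefSeq match, so some belong to genes that RefSeq calls coding, such as Nav1 for Gm38399. Their median ratio of observed to expected CpG was 0.605, beside 0.384 for all 32851 windows of the table, and 51.5% against 35.8% reached 0.6. The GC box GGGCGG, counted on both strands like every motif here, was in 45.4% against 35.7% of windows. The TATA box TATAAA was in 13.5% against 13.6%, and CCAAT in 37.4% of both. The motif CAAGGTCA, bound by the adrenal factor SF-1 (Nr5a1), was in 4 of the 163 windows (2.45%) against 1.56%, and the cyclic AMP element TGACGTCA was in 4 (2.45%) against 1.79%, 1 of them at Gas5. The E-box CACGTG was in 10.4% against 7.15%. A match says only that the letters are there. The comparison windows, of 27025 genes, were not limited to detected genes. Detection and lincRNA class therefore cannot be told apart in these shares.

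Each gene was then read in the second quantifier, which was run on the same reads, so that likeness between the tables is no replication. Their levels followed each other (Spearman's rho 0.829 over the means of the 248 genes, and 0.927 over all 14168 detected genes, both as descriptions across genes). In the second quantifier 237 of the 248 also reached 1 TPM in both libraries, a share of 95.6% beside 13582 of all 14168 detected genes, and 5 were below it in both (2.62% of all detected genes were). In both libraries, 177 of the 248 differed by less than 1.5-fold between the tables, beside 12862 of the 14168 detected genes, so a smaller share of the lincRNAs lay within that fold. The median of the log2 ratio of gene table to second quantifier, with 0.1 TPM added to each, was -0.15 in replicate 1 and -0.13 in replicate 2. Over all detected genes it was 0.06 and 0.10. The median lincRNA was thus lower in the gene table and the median detected gene higher, but with counts scaled to the library total the median over detected genes was -0.05 and that over lincRNAs -0.19. The 94 lincRNAs with a single transcript had a median of 0.02 on the TPM scale, and the 49 with at least 5 transcripts one of -0.26. Over all detected genes these medians were 0.17 and 0.03, a fall in the same direction.

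Differences of at least 2-fold in both libraries were found for 7 lincRNAs that were higher in the gene table (2.82% of 248; 3.06% of all detected genes) and for 14 that were lower (5.65%; 0.543% of all detected genes). The first share is near the background of all detected genes and the second above it. Among the 12366 detected protein-coding genes, 34 were higher and 39 lower by this fold. Both lincRNA shares were thus above those of protein-coding genes. The limit of 1 TPM was set on the gene table for the lincRNAs and for the background alike. Of the 7, 5 had a single exon, and of the 14 none did.

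**Figure D2:**
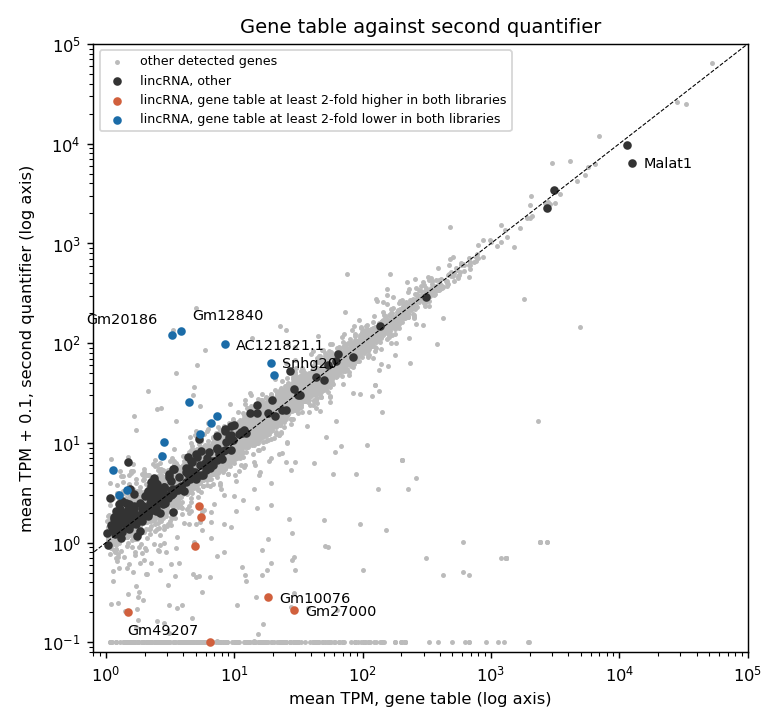
Mean TPM over the 2 libraries in the gene table (horizontal, log axis) against mean TPM + 0.1 in the second quantifier (vertical, log axis) for the 248 lincRNAs and, in grey, all other detected genes. Most lincRNAs lie along the dashed line of equal values, 14 blue points lie at least 2-fold above it and 7 orange points at least 2-fold below it in both libraries.

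The 7 higher genes were mostly short single-exon entries that share sequence with another gene. Gm27000 on chromosome X (88759471 to 88760312) was at 26.5 and 31.9 TPM and at 0 and 0.22 TPM in the second quantifier. Of its 31-base words 96.2% also occur in Meg3, an imprinted RNA at 1113 and 1132 TPM, and its 563 and 606 counts were 0.961% and 1.15% of those of Meg3. Gm10076, a pseudogene in RefSeq, was at 17.8 and 19.02 TPM and at 0.37 and 0 TPM in the second quantifier, and shared 82.2% of its words with the ribosomal protein gene Rpl41. Gm49207 was at 4.25 and 8.68 TPM and listed at 0 in both second tables, and shared 83.1% with Ahsa1, a co-chaperone gene. Gm45733 (5.71 and 4.23 TPM against 0.53 and 1.14) shared 79.9% with Baz2a, and Gm49749 (4.02 and 6.93 TPM against 0.82 and 2.60) lies wholly within the sequence of Pcnx. In these 5 pairs the gene table gave the single-exon entry between 0.799% and 3.18% of its partner's counts. Of the other 2, Gm39469 was at 6.38 and 4.33 TPM against 2.36 and 2.11 TPM and shared 11.4% of its words with other genes. 1700026F02Rik rested on fewer than 5 counts a library.

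Malat1 fell just short of that fold. The gene table had it at 1.97 times the TPM of the second quantifier, where it was at 6587 and 6238 TPM, although the second quantifier gave it 1.16 and 1.13 times as many counts. The difference lay in the short transcripts. The full-length Malat1-201 was at 5524 and 5342 TPM in the gene pipeline and at 5355 and 4995 TPM in the second quantifier. The fragments Malat1-202, Malat1-203 and Malat1-204, of 485 to 656 bases, were at 2793, 1113 and 3324 TPM in replicate 1 of the gene pipeline and at 484, 3.04 and 744 TPM in the second quantifier. TPM divides each transcript's count by its length, so counts on short transcripts weigh more in the sum.

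Among the lower group were some hosts of small RNAs. AC121821.1 on chromosome 18 was at 7.11 and 9.80 TPM in the gene table and at 100.4 and 93.6 TPM in the second quantifier, and 92.7 and 83.9 TPM of the latter were in AC121821.1-204, a retained-intron transcript at 0.62 and 0.77 TPM in the gene pipeline. Its exons hold the gene of the snoRNA Snora74a, which the gene table put at 524.8 and 478.3 TPM and the second quantifier at 0. Snhg20 was at 19.1 and 19.7 TPM against 61.8 and 64.9 TPM, and the scaRNA Gm26083 inside it was at 113.6 and 108.9 TPM against 0. Snhg1 was at 20.1 and 20.5 TPM against 45.7 and 50.5 TPM, and Snord22 inside it at 353.5 and 303.1 TPM against 0.

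Counts show the same division. In replicate 1 the gene table gave 230.8 counts to AC121821.1 and 1448 to the small RNA genes in its exons, 1679 together, and the second quantifier gave 2043 to the host alone. For Snhg20 the gene table gave 353.3 and 302.7 counts, 656.0 together, against 754.0 for the host in the second quantifier. For Snhg1 it gave 485.8 and 263.2, 749.0 together, against 885.0. In replicate 2 the sums were 1455, 571.0 and 620.0 counts, against 1682, 630.0 and 727.0 in the second quantifier. The second quantifier's total over annotated genes was 1.11 and 1.08 times that of the gene table. Across the annotation, 121 snoRNA and scaRNA genes reached 1 TPM in both gene tables and 16 in both second tables. Of the 20 snoRNA or scaRNA hosts among the lincRNAs, 16 were lower in the gene table, beside 156 of all 248. Their median log2 ratio was -0.38 beside -0.13, and 4 of the 14 genes in the lower group were such hosts. A detected small RNA gene lay in an exon of 9 lincRNAs, and 7 of these were lower in the gene table. Other hosts were lower with small RNA genes at 0 counts, such as 9430037G07Rik (-0.70) and Snhg5 (-0.43). The part of divided reads in the median was not tested.

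The lowest ratios of the group were those of Gm20186, at 3.76 and 2.75 TPM against 135.9 and 106.3 TPM, and Gm12840, at 3.78 and 3.91 TPM against 143.7 and 122.2 TPM. They lie on chromosomes 6 and 4 and share sequence with each other, 34.2% of the words of Gm20186 and 59.8% of those of Gm12840. AC102496.1, at 3.87 and 5.09 TPM against 26.6 and 24.7 TPM, AC158975.2, at 5.32 and 5.41 TPM against 12.6 and 12.02 TPM, and AI506816 shared more words with Gm42427 than with any other gene, 41.2%, 89.2% and 8.79%. Gm42427 is an unclassified entry at 2.42 and 2.55 TPM against 21.8 TPM in each second table. The 2 libraries were close within each quantifier for these entries, and the quantifiers were far apart.

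Shared sequence went with these differences. Of the 248 genes, 198 shared under 10% of their 31-base words with another annotated gene, and 2.53% of them differed at least 2-fold between the tables in both libraries. The share was 21.9% of 32 genes that shared 10% to under 50%, and 50% of 18 genes that shared at least 50%. Over all detected genes the shares were 0.753%, 5.53% and 34.2%. Its part in each single difference was not tested.

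**Figure D3:**
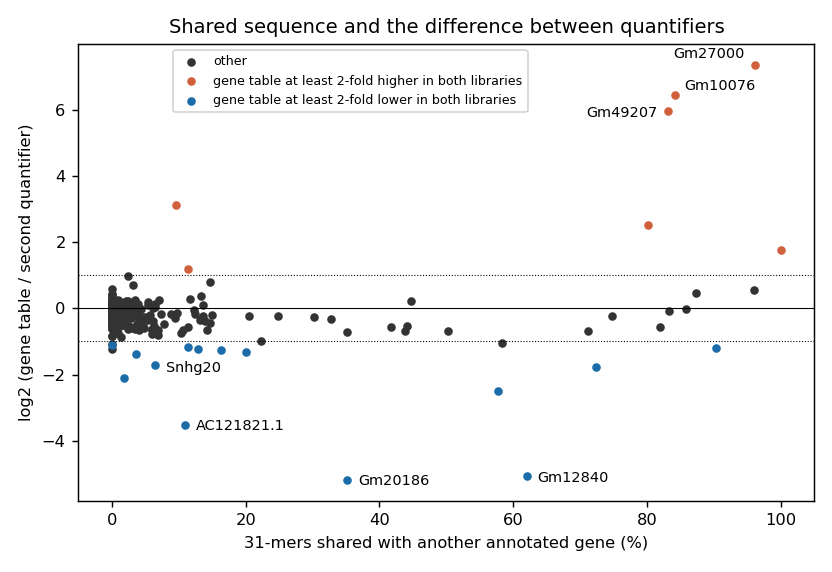
Percent of each lincRNA's 31-base words that occur in another annotated gene (horizontal) against the log2 ratio of gene table to second quantifier, mean of the 2 libraries (vertical), with dotted lines at 2-fold. Of the 198 points with under 10% shared words 5 lie past 2-fold in both libraries, and the highest points, Gm27000, Gm10076 and Gm49207, share over 80%.

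The second quantifier listed more lincRNAs above the limit. By the second quantifier 448 lincRNA genes reached 1 TPM in both libraries, 211 of them outside the 248. Their median there was 2.05 TPM, and 104 of them were under 0.1 TPM in both gene tables. The highest was Gm26905 on chromosome 8, at 45.8 and 41.8 TPM against 0.02 and 0 TPM, on 11052 and 9122 estimated counts against 4 and 0. It shared 93.0% of its words with other genes, but only 33 of the 211 shared 50% or more. Gm26822 on chromosome 16 shared 4.10% and was at 12.8 and 23.9 TPM against 0 and 0.01 TPM.

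The leading transcript of a gene, the one with the highest TPM, was compared across the tables. Of the 154 lincRNAs with more than 1 transcript, 117 had the same leading transcript in both libraries of the gene pipeline and 116 in both of the second quantifier. In 83 all 4 tables named the same one, and in 25 the quantifiers differed in both libraries.

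The isoforms of Neat1 differed between the libraries. Its short form, Neat1-202 of 3004 bases, was at 309.0 TPM in replicate 1 and 195.6 TPM in replicate 2, and in the second quantifier at 271.2 and 162.1 TPM. Its long form, Neat1-201 of 20771 bases and the one that assembles paraspeckles, was at 40.9 and 45.9 TPM, and at 37.1 and 39.8 TPM in the second quantifier. Of these 2 forms the short one was lower in replicate 2 and the long one slightly higher, in both quantifiers. Neat1-203, of 1030 bases, was also lower there, at 9.70 and 6.24 TPM. The ratio of short to long form fell from 7.56 to 4.26 in the gene pipeline, and from 7.31 to 4.07 in the second quantifier. The gene's TPM differed by -0.54 on the log2 scale in replicate 2 and its count, after scaling, by -0.22, while the effective length that the TPM divides by was 4774 bases in replicate 1 and 6022 bases in replicate 2. The short form is contained in the long one, and the division between them is an estimate of each quantifier. White adipocyte markers were also lower in replicate 2, as given above, and their part in this was not tested.

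**Figure D4:**
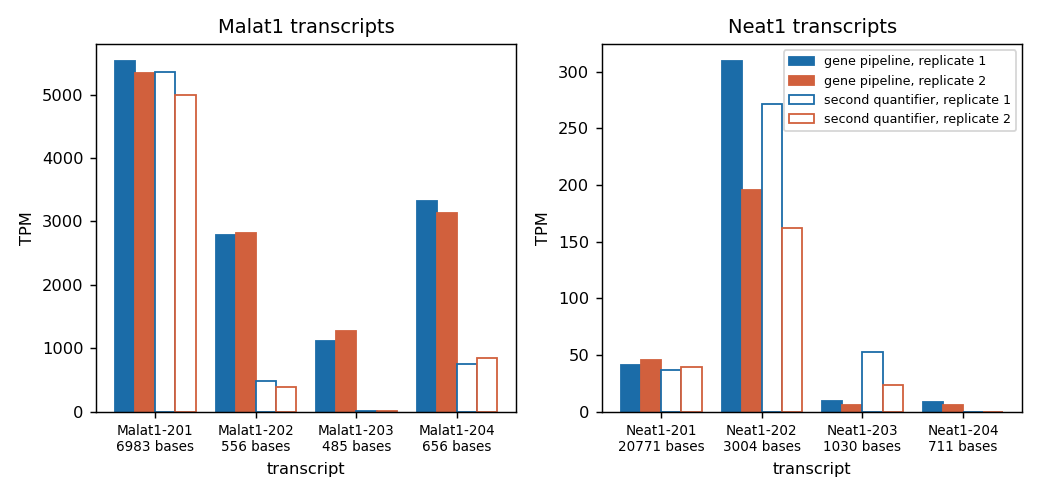
TPM of the annotated transcripts of Malat1 (left) and Neat1 (right), with filled bars for the gene pipeline and open bars for the second quantifier, blue for replicate 1 and orange for replicate 2, and no error since each bar is 1 library. Malat1-202, Malat1-203 and Malat1-204 are higher in the gene pipeline than in the second quantifier, and Neat1-202 is lower in replicate 2 in both quantifiers.

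Between the libraries the 248 genes were close. Among the 235 with a mean of at least 20 counts, the median log2 ratio of replicate 2 to replicate 1 was -0.02 and the median size of the ratio 0.19, with a median counting standard error of 0.20. For all 13910 detected genes with such counts the median size was 0.11 and the counting error 0.08. Differences beyond 2 counting errors were seen in 25.96% of the lincRNAs and 31.3% of all these genes. The counting error covers reads only, and with 1 library each no spread within a replicate was known.

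A 2-fold difference between libraries was found for 3 of the 235 lincRNAs (1.28%; 0.582% of all detected genes with such counts). They are named because they were found past the fold. Gm27019 was at 4.71 and 1.67 TPM on 41 and 13 counts, 1700066O22Rik at 3.41 and 1.44 TPM on 62 and 23 counts, and Gm39090 at 1.75 and 3.14 TPM on 36 and 66 counts. All had few counts, and the first 2 were lower in replicate 2 while the third was higher. A difference of 1.5-fold was seen in 19 of the 235 (8.09%), against 3.33% of all detected genes with such counts.

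Among genes with a mean of at least 50 counts, the lowest log2 ratios of replicate 2 to replicate 1 were those of Gm8066 (-0.76, counting SE 0.29), Gm15706 (-0.75, 0.29) and Gm13387 (-0.73, 0.23). Those of Gm28187, Gm26660 and Gm39469 followed, at -0.72 to -0.57. The highest after Gm39090 were 2610035D17Rik (0.93, counting SE 0.24), Gm31333 (0.88, 0.15) and Gm49749 (0.75, 0.23). E130102H24Rik, the host of miR-101a, followed at 0.65 with a counting SE of 0.16, on 131 and 187 counts, and 1300014J16Rik at 0.64. The second quantifier had E130102H24Rik at 13.1 and 17 TPM, Gm31333 at 3.99 and 7.06 TPM and 2610035D17Rik at 1.42 and 2.77 TPM, the same order of libraries as in the gene table.

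Host genes were counted by direction as well. Of 20 snoRNA or scaRNA hosts 11 were higher in replicate 2, with ratios from -0.33 to 0.39, and of 16 microRNA hosts with enough counts 7 were, with ratios from -0.28 to 0.65. Over all 235 lincRNAs 107 were higher in replicate 2 (45.5%; 49% of all detected genes with such counts).

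**Figure D5:**
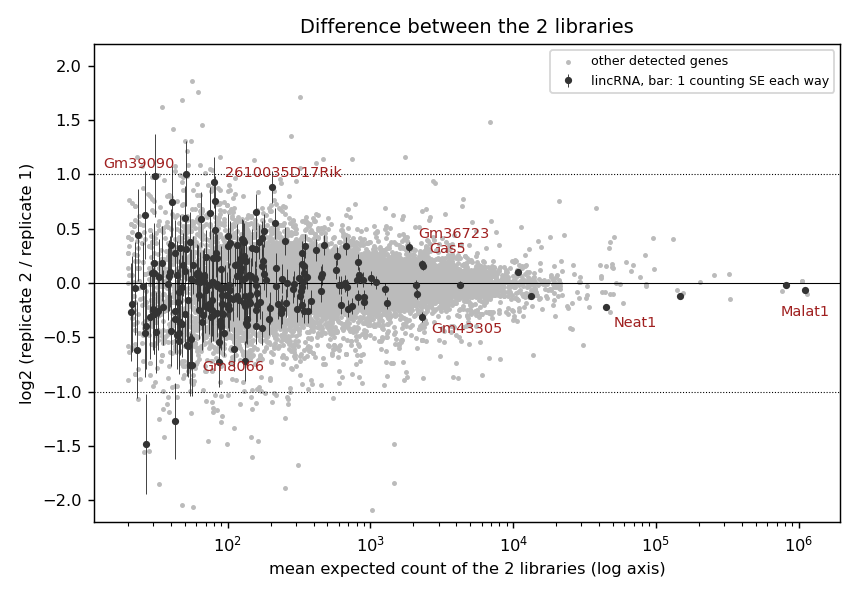
Mean expected count of the 2 libraries (horizontal, log axis) against the log2 ratio of replicate 2 to replicate 1 (vertical) for the 235 lincRNAs with at least 20 counts, with bars of 1 counting standard error, and in grey all other detected genes (1 lies outside the drawn range). Ratios past 2-fold, the dotted lines, are seen for 3 lincRNAs of low count, while Malat1, Neat1 and Gas5 lie between -0.22 and 0.17.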

How the data were processed

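Total RNA of 2 adrenal libraries of 1 group was measured. Expected counts, TPM and FPKM per gene, and percent of each transcript in its gene, were deposited by the authors, based on the mm10 genome and the GENCODE M21 annotation as the series notes state. The authors deposited lower and upper limits of an interval around each TPM too (a signal of unstated coverage), and per the file headers a posterior SD of each count. A second deposited table gave estimated counts and TPM per transcript made from the reads, here the second quantifier, and was summed per gene. The aligner and both quantifiers are not named in the sources used here.

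The 55450 annotated genes present in both gene and second tables were used; counts outside annotated genes were 0.507% and 0.544% of each gene table. Expected counts were rounded, and library ratios used TMM-scaled totals (edgeR 4.0.16, R 4.3.3) with a prior count of 0.5, the factors being 0.997 and 1.003. Ratios between tables used a pseudocount of 0.1 TPM, and so understate differences of low genes. Counting standard errors are Poisson errors and cover counting only. Shared sequence is the percent of a gene's 31-base transcript words, on its strand, that occur in another gene of the annotation. Host genes were found by coordinates, with microRNA hairpins taken from RefSeq and snoRNA and scaRNA genes from the annotation. A simpler form of the library ratio, with the prior not scaled to each library, was tested on simulated counts. Ratios between tables were not simulated. Alternatives used DESeq2 1.42.0 size factors, other limits, pseudocounts and scalings, and single libraries. Software was Python 3.11.15 (pandas 2.3.3, numpy 2.4.6, matplotlib 3.10.9). No p-values were computed.

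The members, lists and comparisons were chosen with earlier results of these data known. Genes were listed for naming as the 20 highest members and the 8 largest differences each way between tables among members of at least 5 TPM in either. The 6 highest and lowest library ratios among members of at least 50 counts and detected list members were added. So were 4 genes on each side of the limit and those of extreme length. Not every listed gene is described in the text. Gm36723, Gm53, Gm43305, Gm28382, Gm10863, Gm42047, Gm1976 and Gm47101 are among those left out, so the genes described are a choice from the list. The longest listed gene by effective length, Gm20342, was at 2.66 and 2.63 TPM. Further genes named for being past a fold, for a divergent neighbour or for hosting a small RNA were chosen after their values were seen.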

Additional observations from a re-analysis of the deposited data

How the results depend on the processing

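The number of detected lincRNAs was 148 with a limit of 2 TPM and 448 with the second quantifier's TPM, and stayed within 1.5 times 248 with a limit of 0.5 TPM (372), FPKM (241), lincRNA transcripts only (201) and 1 library alone (268 and 291). The median log2 ratio of gene table to second quantifier was -0.13, moving to -0.10 with a pseudocount of 1, -0.19 with counts scaled to the library total and -0.11 with at least 50 counts, and lay between -0.15 and -0.13 with 1 library alone. Over all detected genes it was -0.05 with counts scaled to the library total, a change of sign, with the lincRNAs still lower. The count of 7 higher genes was 4 with at least 50 counts, between 8 and 9 with 1 library alone, and 2 among genes sharing under 50% of their words, an alternative chosen after seeing the data. The count of 14 lower genes ranged from 10 to 19. The 3 genes past 2-fold between libraries became 0 with a mean of at least 100 counts, where fewer genes were compared. The share of counts held by the lincRNAs, 7.95% on average, was 0.463% without Malat1, Gm26917 and Gm42418, 3.21% in TPM and 8.95% in the second quantifier's counts. The causes of these changes were otherwise not tested. Members with few counts limit what the library ratios can show: 13 of the 248 had fewer than 20. No paired analysis was possible because the series holds 1 group.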

Other observations

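The detected set included 1 gene on the Y chromosome, Gm29650, at 2.01 and 1.70 TPM. Lncbate1, a lincRNA known from brown fat and named after its values were seen, was at 7.75 and 10.98 TPM, with a log2 count ratio of 0.48 and a counting standard error of 0.15. The summed white adipocyte markers had the opposite order of libraries. The left-out imprinted RNAs Meg3 and Rian, at 1113 and 1132 TPM and at 463.8 and 464.8 TPM, would have ranked between Rmrp and Gas5, while H19 was at 0.50 and 0.57 TPM and would not have passed the limit. Counts of 0 in both libraries were found for 4189 of the annotated lincRNA genes.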
